A study of Homo sapiens with 6 samples.

Results

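Transforming growth factor-β (TGF-β) is a secreted ligand that is read by a small set of proteins, and transcripts of 10 of these were followed through the conversion of B cells into macrophages with and without the architectural protein CTCF. The genes were chosen by name, as TGFB1, TGFBR1, TGFBR2, SMAD2, SMAD3, SMAD4, SMAD7, SKI, SKIL and TGFBI, and all 10 were found among the 30017 gene symbols of the deposited count table. Of these, 9 had enough counts to be tested. TGFBI was not tested, having 0 counts in each 0 h library and 1 count in each of the 4 libraries at 96 h, under the floor of 3 counts per library.

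The cells were BLaER1, a human B cell leukemia line in which the transcription factor CEBPA can be switched on to convert the cells into induced macrophages (iMacs). A subclone was used in which endogenous CTCF carries an auxin-inducible degron, a tag that leads to degradation of the protein when auxin (indole-3-acetic acid) is given. The 6 RNA-seq libraries fall into 3 groups of 2. The 0 h group held uninduced cells with no auxin, the 96 h control group held cells at 96 h of transdifferentiation with 17β-estradiol, IL-3 and CSF-1 and no auxin, and the 96 h CTCF-depleted group held cells given the same factors for 96 h, with auxin from the start. Every group carried the degron. For depleted cells the study's methods describe a change during the 96 h to fresh medium holding the factors and auxin. They do not say whether the control cells had this change. Cells that lack the degron and received auxin were not analysed here. Effects of auxin, of any difference in medium change and of CTCF loss therefore cannot be told apart. All libraries come from 1 cell line and 1 subclone. The study's methods call the 2 libraries of a group biological replicates without saying how they were kept apart. The p-values thus measure the spread between such replicates of a single subclone, a spread estimated in large part across genes.

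Libraries held between 9273470 and 12718780 counts. CTCF transcript, which the degron does not target, was at 231 and 214 CPM (counts scaled to a common library size) at 0 h, 181 and 174 in the 96 h control and 191 and 189 after depletion, and this level is no check on the protein. The 10 B cell markers summed to 2524 and 2528 CPM at 0 h and to between 422 and 454 CPM in the 4 libraries at 96 h. The 10 macrophage markers summed to 44.7 and 40.7 CPM at 0 h, 6579 and 6341 CPM in the 96 h control and 5663 and 5589 CPM after depletion. LYZ (mean 4527 CPM in the control and 4158 CPM after depletion) and CYBB (1187 and 624 CPM) made up most of the sums at 96 h. The median log2 fold change of the 10 macrophage markers on depletion was 0.134. In bulk RNA, fewer cells of a type and less RNA per cell cannot be told apart.

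In this pathway the ligand is made as a latent precursor and, once released, brings together the type II receptor TGFBR2 and the type I receptor TGFBR1. The type I kinase phosphorylates SMAD2 and SMAD3, which join SMAD4 and enter the nucleus to regulate genes. SMAD7 blocks the receptor and is itself induced by the signal, while SKI and SKIL (SnoN) bind the SMAD complex and recruit repressors, and SKIL is likewise induced. TGF-β restrains the growth of B cells and shapes macrophage states, and much of the control of the pathway acts on the proteins, which transcript levels do not show.

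SMAD7 and SKIL are negative-feedback targets of SMAD complexes, and both had a lower transcript level in the depleted cells, that of SKIL by less than the fold-change threshold used for a call, so their promoters are shown here. Each is the first start site listed by RefSeq (GRCh38.p14), from 250 bases before to 50 bases after the start, in the direction of transcription. Capitals mark the SMAD-binding letters CAGAC or, on the other strand, GTCTG.
SMAD7, chr18:48950916-48951215, minus strand: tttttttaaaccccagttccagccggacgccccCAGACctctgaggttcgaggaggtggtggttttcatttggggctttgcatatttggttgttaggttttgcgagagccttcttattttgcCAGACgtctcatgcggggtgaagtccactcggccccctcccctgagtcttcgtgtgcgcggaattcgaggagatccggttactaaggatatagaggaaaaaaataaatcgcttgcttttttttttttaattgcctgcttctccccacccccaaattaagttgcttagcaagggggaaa
SKIL, chr3:170357465-170357764, plus strand: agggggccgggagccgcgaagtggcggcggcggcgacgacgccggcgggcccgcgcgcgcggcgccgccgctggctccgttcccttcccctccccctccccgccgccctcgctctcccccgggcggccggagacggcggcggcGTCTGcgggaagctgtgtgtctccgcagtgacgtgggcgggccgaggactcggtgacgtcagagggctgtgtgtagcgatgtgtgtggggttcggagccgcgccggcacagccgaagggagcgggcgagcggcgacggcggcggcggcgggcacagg
The SMAD7 window held 2 such matches, starting at -217 and -128 from the start site, and the SKIL window held 1, at -107. Such a match is common, since 45.3% of all 35116 promoter windows held at least 1 on either strand. Of the other genes followed, the first listed windows of TGFBR1 and SMAD3 held 1 match each. Those of TGFB1, TGFBR2, SMAD2, SMAD4 and TGFBI held 0, and SKI had no window. Windows at further listed starts held up to 4 matches in SMAD3 and up to 2 in TGFBR1. Of all windows 0.57% held 4 or more. Letters found in the CTCF core motif (AGGGGGC or AGATGGC, both strands) occurred once in each window shown, at -97 in SMAD7 and at -250 in SKIL, and in 19.1% of all windows.

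The palindromic SMAD-binding letters GTCTAGAC, read on hg38 around the gene starts, were within 1 kb on either side of the start in 0 of the 10 genes and in 0.923% of 13544 tested genes. When the window was widened to 2 kb, after the narrower search had been read, SMAD7 was the 1 gene of the 10 with a match, against 2.16% of the tested genes. The match began 1260 bases upstream of the annotated SMAD7 start and is shown with its flanks, the palindrome in capitals.
SMAD7, chr18:48952207-48952236, minus strand: agcgacagggtGTCTAGACggccacgtgac
The palindrome contains neither CAGAC nor GTCTG. A match of letters is a description, and binding at these positions was not tested.

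The first comparison asks how the genes moved during transdifferentiation itself. Of the 9 tested genes, 6 rose from 0 h to the 96 h control and 0 fell, a call needing a log2 fold change beyond 0.6 in either direction together with an adjusted p below 0.01 (edgeR's quasi-likelihood test, Benjamini-Hochberg adjustment over 14758 genes). Across all tested genes 25.4% were called higher and 22.9% lower. The 6 genes were TGFB1, TGFBR1, SMAD3, SMAD7, SKI and SKIL. The median log2 fold change of the 9 genes was 2.31, against 0.015 over all tested genes. The genes were chosen with earlier results of these data known. Counts and medians of the set, here and in the later comparisons, are thus no independent test of it.

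TGFB1, the ligand gene (ENSG00000105329.11, hg38 chr19:41301587-41353922), was at 72.4 and 61.4 CPM at 0 h, 316 and 342 CPM in the 96 h control and 374 and 357 CPM in the CTCF-depleted cells. Both 96 h groups lay well above 0 h, and the rise to the control was 4.96-fold (log2 fold change 2.31, SE 0.06, edgeR adjusted p = 3.94e-40). TGFB1 shares 215 exonic bases with HNRNPUL1 on the opposite strand. The strand setting of the counting is not given in the sources used here, so reads in the shared part could belong to either gene.

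The 2 receptor genes differed. TGFBR1 (type I, chr9:99104038-99154192) was at 32.8 and 37.0 CPM at 0 h, 185 and 188 CPM in the control and 177 and 172 CPM after depletion, a 5.31-fold rise to the control (log2 fold change 2.41, SE 0.07, edgeR adjusted p = 2.27e-38). TGFBR2 (type II, chr3:30606601-30694142) was at 181 and 186 CPM at 0 h, 135 and 136 CPM in the control and 181 and 172 CPM after depletion. The TGFBR2 level was thus lower in the control than in the 0 h cells, by -0.44 on the log2 scale (SE 0.05, edgeR adjusted p = 9.23e-11), a difference under the fold-change threshold. Within a library, TGFBR2 counts were 5.53 and 5.04 times those of TGFBR1 at 0 h and 0.731 and 0.722 times in the control. A ratio of counts within a library is free of the scaling between libraries, but not of transcript length.

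The receptor-regulated SMADs differed in the size of their change. SMAD3 (chr15:67063763-67195173) was at 109 and 106 CPM at 0 h, 374 and 405 CPM in the control and 326 and 309 CPM after depletion. It rose 3.62-fold to the control (log2 fold change 1.86, SE 0.05, edgeR adjusted p = 4.47e-38). SMAD2 (chr18:47808957-47931146) was at 134 and 132 CPM, then 183 and 192 CPM, and 196 and 206 CPM in the same groups, a log2 fold change of 0.50 to the control (SE 0.05, edgeR adjusted p = 2.23e-12) that stayed under the threshold. SMAD3 counts were 0.818 and 0.80 times those of SMAD2 at 0 h and 2.05 and 2.11 times in the control.

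SMAD4, the common partner (chr18:51028528-51085045), was the steadiest of the 9 genes in this comparison by fold change. Its level was 116 and 120 CPM at 0 h, 136 and 140 CPM in the control and 124 and 126 CPM after depletion, with a log2 fold change of 0.22 to the control (SE 0.06, edgeR adjusted p = 5.66e-04). This adjusted p was 0.0116 in DESeq2 and reached 0.0184 over the alternatives tried. SMAD4 shares 967 exonic bases with a gene model on the same strand that has no row of its own in the count table.

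The largest rises among the 9 genes were those of the inhibitors SKI and SMAD7. SKIL came next, but its 95% interval (2.4 to 2.64) overlapped those of TGFBR1 (2.28 to 2.54) and TGFB1 (2.19 to 2.43). SKI (chr1:2227388-2310213) went from 17.3 and 19.5 CPM at 0 h to 296 and 311 CPM in the control, a 16.3-fold rise (log2 fold change 4.03, SE 0.07, edgeR adjusted p = 2.31e-49). SMAD7 (chr18:48919853-48950965) went from 3.82 and 4.73 CPM to 61.0 and 57.3 CPM, a 13.6-fold rise (log2 fold change 3.77, SE 0.12, edgeR adjusted p = 2.49e-35). SKIL (chr3:170357342-170396835) went from 44.7 and 48.4 CPM to 271 and 267 CPM, a 5.75-fold rise (log2 fold change 2.52, SE 0.06, edgeR adjusted p = 9.45e-42). SKI counts were 0.388 and 0.403 times those of SKIL at 0 h and 1.09 and 1.17 times in the control, so the order of the pair in counts turned over. SMAD7 rested on 37 and 63 counts at 0 h and on 691 and 619 counts in the control.

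**Figure D1:**
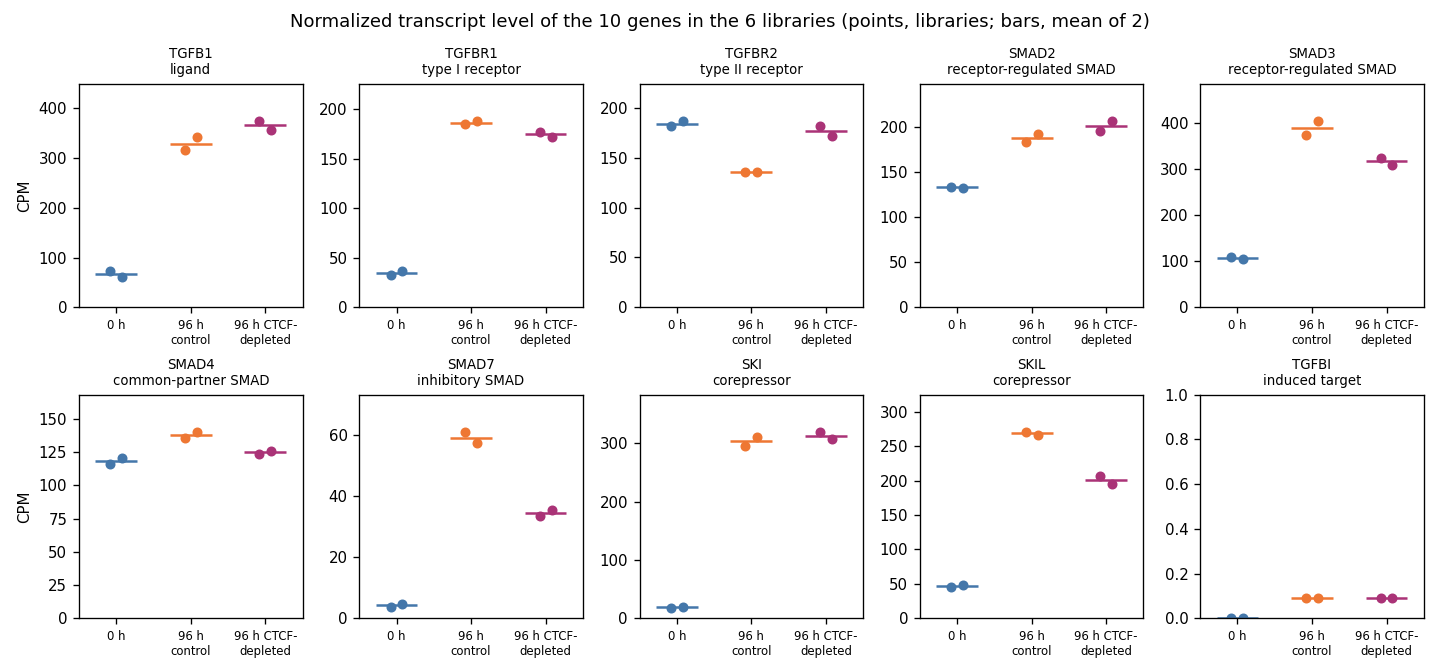
Each panel plots the level of 1 gene in CPM (y axis, linear, from 0) for the 2 libraries of each group (points) with their mean (bar). SMAD7 stands at 3.82 and 4.73 CPM at 0 h, 61.0 and 57.3 CPM in the 96 h control and 33.3 and 35.3 CPM after depletion, while TGFBI stays under the floor of 3 counts in all 6 libraries.

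Levels of different genes were compared per kilobase of their merged exons in GENCODE v44. At 0 h TGFBR2 had the highest level, at 26.8 ± 0.539 CPM per kb (SD, n = 2), followed by TGFB1 at 20.5 ± 2.40 and SMAD3 at 10.8 ± 0.261. SMAD4 (6.02 ± 0.170) and SKIL (5.73 ± 0.323) came next and did not differ beyond their spread. TGFBR1 (4.37), SMAD2 (3.65), SKI (2.75) and SMAD7 (1.08 CPM per kb) closed the order. In the 96 h control TGFB1 led at 101 ± 5.65 CPM per kb, followed by SKI at 45.4 ± 1.56, SMAD3 at 38.9 ± 2.18 and SKIL at 33.1 ± 0.361. TGFBR1 (23.4), TGFBR2 (19.8), SMAD7 (15.0), SMAD4 (7.03) and SMAD2 (5.14 CPM per kb) followed. TGFB1, SKI, SKIL, TGFBR1 and SMAD7 had thus moved up in this order. TGFBR2, SMAD4 and SMAD2 had moved down, and SMAD3 kept its place.

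The order in the depleted cells was TGFB1 (112), SKI (46.9), SMAD3 (31.7), TGFBR2 (25.8), SKIL (24.7), TGFBR1 (21.9), SMAD7 (8.69), SMAD4 (6.36) and SMAD2 (5.52 CPM per kb). TGFBR2 at 25.8 ± 0.999 and SKIL at 24.7 ± 1.03 did not differ beyond their spread. Gene length matters here, since the merged exons of SMAD2 and SMAD4 span 36426 and 19606 bases, and the canonical transcripts 34626 and 8772 bases. With canonical transcripts as the length, SMAD3 (60.3) passed SKI (49.9) and TGFBR2 (29.9) passed TGFBR1 (28.7 CPM per kb) in the control, and SMAD4 at 0 h (13.5) stood clear of SKIL (6.50 CPM per kb). TGFBR2 (39.0 ± 1.51) was then also clear of SKIL (28.03 ± 1.17 CPM per kb) in the depleted cells.

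The second comparison asks what changed when CTCF was depleted during the conversion. SMAD7 fell, and it was the 1 gene of the 9 that was called, with 0 called higher. Across all tested genes 7.03% were called lower and 5.41% higher. SMAD7 was at 61.0 and 57.3 CPM in the control and at 33.3 and 35.3 CPM in the depleted cells, on 691 and 619 against 360 and 383 counts. The groups did not overlap, as for 67.9% of all tested genes. The SMAD7 level in depleted cells was 0.580 times that in the control (log2 fold change -0.79, SE 0.08, edgeR adjusted p = 1.03e-11). The log2 fold change lay between -0.80 and -0.71 over the 10 alternatives for this value, DESeq2 giving -0.77 with an adjusted p of 4.68e-07. SMAD7 in the depleted cells was still 7.89-fold above 0 h (log2 fold change 2.98, edgeR adjusted p = 1.33e-28).

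A further 3 genes had an adjusted p below 0.01 with a change under the fold threshold. SKIL was at 271 and 267 CPM in the control and 206 and 195 CPM after depletion (log2 fold change -0.42, SE 0.05, edgeR adjusted p = 5.09e-10). SMAD3 was at 374 and 405 against 326 and 309 CPM (log2 fold change -0.29, SE 0.05, edgeR adjusted p = 6.97e-07), and without the second control library its log2 fold change was -0.21 with an adjusted p of 0.0103. TGFBR2 was at 135 and 136 against 181 and 172 CPM, and was the 1 gene of the 3 with a higher level in depleted cells (log2 fold change 0.38, SE 0.05, edgeR adjusted p = 3.11e-08). Counted at this adjusted p with no fold threshold, 3 of the 9 genes were lower and 1 was higher, against 17.4% lower and 12% higher across all tested genes.

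The other 5 genes had adjusted p-values above 0.01. TGFB1 was at 316 and 342 CPM in the control and 374 and 357 CPM after depletion (log2 fold change 0.15, 95% interval 0.05 to 0.25, edgeR adjusted p = 0.0121). This adjusted p lay between 8.19e-05 and 0.17 over the alternatives, below 0.01 in 5 of 10 of them (0.00363 without the second depleted library), and the log2 fold change was 0.24 without the second control library. SMAD4 had a log2 fold change of -0.14 (95% interval -0.26 to -0.03, edgeR adjusted p = 0.042). TGFBR1 had -0.10 (-0.21 to 0.02, edgeR adjusted p = 0.175), SMAD2 had 0.10 (0.00 to 0.21, edgeR adjusted p = 0.109) and SKI had 0.05 (-0.05 to 0.14, edgeR adjusted p = 0.481). These intervals, from the standard errors of the edgeR fit, leave out changes as large as that of SMAD7. The CPM values of control and depleted libraries did not overlap for 8 of the 9 genes, SKI being the exception, which is to be read against 67.9% of all tested genes. For a single gene, an exact permutation test of 2 against 2 libraries cannot go below p = 0.333.

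**Figure D2:**
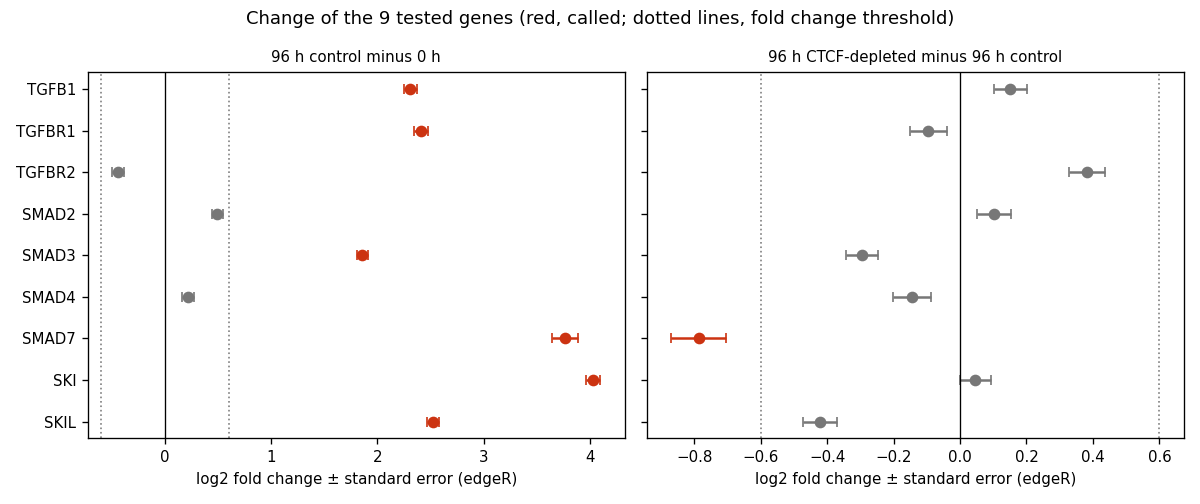
Points are log2 fold changes (x axis) of the 9 tested genes and bars are ± 1 standard error, for the 96 h control minus 0 h (left) and the 96 h CTCF-depleted cells minus the 96 h control (right). Red marks called genes, 6 on the left and SMAD7 alone on the right, and dotted lines mark the fold-change threshold of 0.6.

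The balance between paired genes shifted with these differences. TGFBR2 counts were 0.731 and 0.722 times those of TGFBR1 in the control and 1.03 and 0.997 times in depleted cells, between the control and the 0 h values of 5.53 and 5.04. The ratio of SMAD3 to SMAD2 was 2.05 and 2.11 in the control and 1.66 and 1.5 after depletion. The ratio of SMAD7 to SMAD3 was 0.163 and 0.142 in the control and 0.102 and 0.114 after depletion, against 0.0349 and 0.0447 at 0 h. In these 3 of the 5 pairs computed the depleted libraries lay between the 0 h and the control libraries. For SKI to SKIL the ratio was 1.09 and 1.17 in the control and 1.55 and 1.58 after depletion, farther from the 0 h values of 0.388 and 0.403. The ratio of SMAD4 to SMAD2 likewise lay farther from 0 h, at 0.865 and 0.912 at 0 h, 0.741 and 0.730 in the control and 0.631 and 0.609 after depletion. These ratios are given as values and were not tested.

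**Figure D3:**
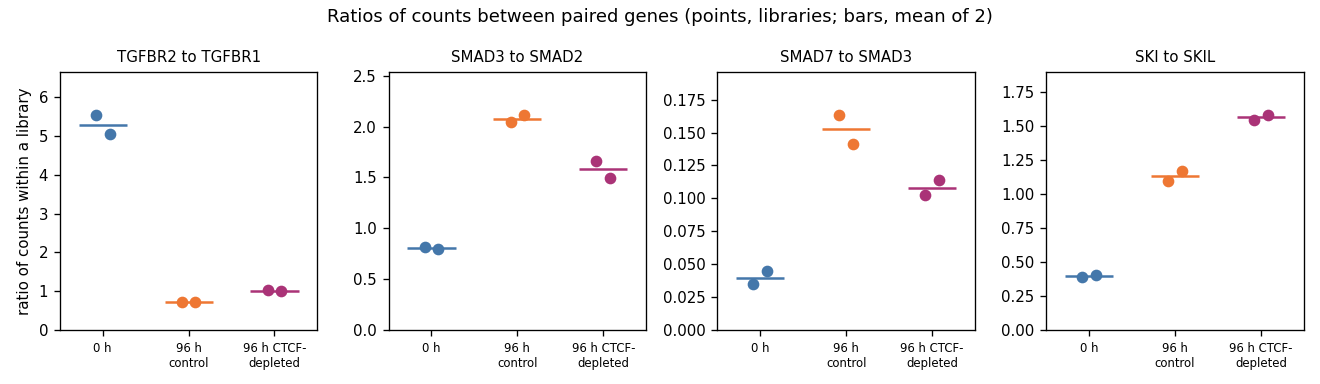
For 4 of the 5 pairs, each panel plots the ratio of the counts of 2 genes within a library (y axis, linear, from 0) for the 2 libraries of each group (points) with the mean (bar). The depleted libraries lie between 0 h and control for TGFBR2 to TGFBR1, SMAD3 to SMAD2 and SMAD7 to SMAD3, and above the control for SKI to SKIL.

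Measured from the 0 h cells, the depleted cells had 6 of the 9 genes called higher and 0 lower, against 27.2% and 25.2% of all tested genes. They were the genes that rose in the control, and this comparison shares its 0 h libraries with the first and its depleted libraries with the second. SKI was 16.9-fold, TGFB1 5.51-fold, TGFBR1 4.97-fold, SKIL 4.29-fold and SMAD3 2.95-fold above 0 h. SMAD2 lay at the edge of the threshold with a log2 fold change of 0.598 (edgeR adjusted p = 2.28e-15). It passed without the first 0 h library (0.63), without the first depleted library (0.64), and with RLE scaling (0.60), a minimum of 10 counts in every library (0.62) or only the 4 libraries compared (0.60). TGFBR2 in depleted cells was near its 0 h level (log2 fold change -0.06, 95% interval -0.16 to 0.04, edgeR adjusted p = 0.295), as was SMAD4 (0.08, -0.04 to 0.19, edgeR adjusted p = 0.223).

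The genes whose profile over the 6 libraries lay nearest to that of SMAD7, by the distance between centred log2 CPM values, were GSAP (distance 0.171), TRPS1 (0.202) and NFKBID (0.252). NFKBID, a nuclear IκB protein, was at 4.64 and 5.85 CPM at 0 h, 72.7 and 82.3 CPM in the control and 39.4 and 40.9 CPM after depletion. Its low, high and intermediate order is that of SMAD7 because the genes were picked by nearness of profile. No tested gene had its start within 250 kb of the SMAD7 start, among the 91.8% of tested genes that could be placed on hg38. The nearest on either side, named after their values were seen, were CTIF at 412 kb (log2 fold change 0.31 on depletion, edgeR adjusted p = 0.0211) and DYM at 510 kb (0.06, edgeR adjusted p = 0.532). SMAD2 and SMAD4 lie on the same chromosome, 1020 kb and 2078 kb away.

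The other genes of the pathway were followed in lists by role. Calls in each list are to be read against the shares of all tested genes. These were 25.4% higher and 22.9% lower in the control than at 0 h, and 5.41% higher and 7.03% lower on depletion. At an edgeR adjusted p below 0.01 with any fold change, 12% were higher and 17.4% lower on depletion. The share of all tested genes at an unadjusted p below 0.05 was not computed. Of 13 genes for the other TGF-β isoforms and for latency and activation of the ligand, 11 were tested, and 5 rose and 3 fell from 0 h to the control. LTBP1, which tethers latent TGF-β to the matrix, fell from 31.5 and 29.3 CPM to 0.353 and 0.833 CPM (log2 fold change -5.66, edgeR adjusted p = 7.32e-29). THBS1, an activator of the latent ligand, was at least 15.4-fold higher and LRRC32 (GARP), which holds latent TGF-β at the cell surface, at least 9.40-fold higher in the control, with 0 h set to the floor of 3 counts per library. On depletion 1 gene of this list rose and 1 fell. ITGB8, an integrin subunit that activates latent TGF-β, went from 10 and 10 to 31 and 33 counts (log2 fold change 1.70, edgeR adjusted p = 4.92e-04). LTBP1 was at 4 and 9 counts in the control and 1 and 0 counts after depletion, at least 2.14-fold lower. DESeq2 called neither of them on depletion.

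Of 13 other receptors of the superfamily, 11 were tested, with 5 higher and 4 lower in the control than at 0 h and a median log2 fold change of 0.58. ACVRL1 (ALK1) was at 0 and 0.0750 CPM at 0 h and 11.1 and 8.61 CPM in the control, at least 36.9-fold higher. BAMBI, a pseudoreceptor without a kinase that dampens the signal, fell from 34.8 and 29.6 to 3.88 and 4.07 CPM (log2 fold change -3.01, edgeR adjusted p = 3.35e-24). On depletion 3 receptors rose and 0 fell, with a median of 0.22 against -0.03 over all tested genes. They were ACVR1C (ALK7), at 3.18 and 1.57 against 8.52 and 7.37 CPM (log2 fold change 1.73, edgeR adjusted p = 4.01e-07), the activin receptor ACVR2A, at 9.0 and 10.3 against 17.5 and 18.1 CPM (0.88, edgeR adjusted p = 1.82e-06), and BAMBI, at 3.88 and 4.07 against 8.43 and 5.90 CPM (0.85, edgeR adjusted p = 8.14e-04).

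Among 10 other SMADs and partners, 9 were tested, with 4 called higher and 0 lower in the control. SMAD6, the inhibitory SMAD of the BMP branch, rose from 0.619 and 0.750 CPM to 53.0 and 54.1 CPM (log2 fold change 6.24, edgeR adjusted p = 2.35e-38), and was at 35.3 and 36.5 CPM after depletion (-0.58 against the control, edgeR adjusted p = 7.16e-08, under the fold threshold). On depletion 0 genes of this list were called by edgeR and 0 by DESeq2, with 4 of the 9 at an edgeR adjusted p below 0.01 and 5 at an unadjusted p below 0.05. SMAD9, a receptor-regulated SMAD of the BMP branch, and the acetyltransferase EP300 also rose in the control, by 1.99 and 0.70 on the log2 scale.

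Of 11 ubiquitin ligases, deubiquitinases and a phosphatase that act on SMADs or receptors, 7 rose and 0 fell in the control, among them USP15 (log2 fold change 1.21), SMURF2 (1.16) and USP4 (1.15). On depletion 0 of the 11 were called by edgeR and 0 by DESeq2, while 3 had an edgeR adjusted p below 0.01 and 6 an unadjusted p below 0.05. The 8 further SMAD corepressors had 1 gene higher in the control, TGIF1 (log2 fold change 1.02), and 1 lower, STRAP (-0.63), with a median of 0.03, while SKI and SKIL stood at 4.03 and 2.52. On depletion 0 of these 8 were called by edgeR and 0 by DESeq2, with 3 at an edgeR adjusted p below 0.01 and 4 at an unadjusted p below 0.05.

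**Figure D4:**
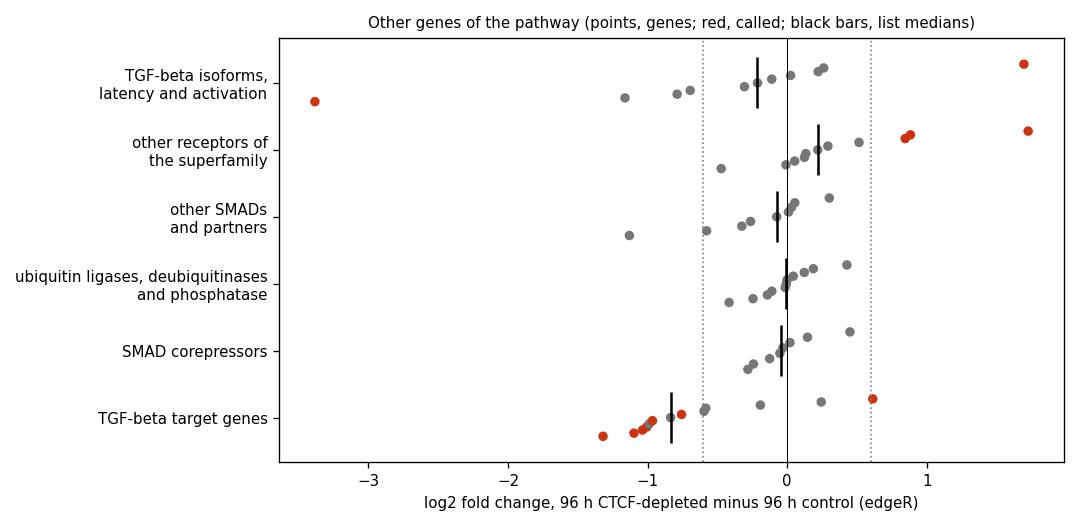
Each point is a tested gene of the named list at its log2 fold change, 96 h CTCF-depleted minus 96 h control (x axis), with called genes in red, black bars at the list medians and dotted lines at the threshold of 0.6. The target gene list has its median at -0.83 with 6 genes called lower and 1 higher, and the other 5 lists have medians between -0.21 and 0.22. The lists were drawn up with earlier results of these data known.

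The list of TGF-β target genes had the most calls on depletion. Of its 15 genes 13 were tested, CDKN2B and CTGF (CCN2) having too few counts, and 6 fell while 1 rose. Among all tested genes, 7.03% were called lower and 5.41% higher on depletion. The median log2 fold change was -0.83, against -0.03 over all tested genes. The list was drawn up with earlier results of these data known, so its counts and median are no independent test of this class. BHLHE40, a transcriptional repressor, was at 190 and 190 CPM in the control and 79.4 and 72.9 CPM after depletion (log2 fold change -1.32, edgeR adjusted p = 2.67e-24). KLF10, first described as a TGF-β-inducible early gene, was at 204 and 195 against 92.3 and 94.0 CPM (-1.10, edgeR adjusted p = 5.19e-21). JUNB, an AP-1 subunit, was at 188 and 200 against 98.6 and 90.6 CPM (-1.04, edgeR adjusted p = 4.49e-21). For these 3 genes the control and depleted libraries did not overlap, as for 67.9% of all tested genes.

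ID3 and ID1, inhibitors of basic helix-loop-helix factors, fell by 1.01 and 0.96 on the log2 scale (edgeR adjusted p = 1.91e-14 and 1.51e-13), and the cell cycle inhibitor CDKN1A fell by 0.76 (edgeR adjusted p = 6.69e-19). LDLRAD4, which restrains SMAD activation, was at 15.6 and 18.0 against 24.4 and 27.0 CPM and was called higher (log2 fold change 0.61, edgeR adjusted p = 2.31e-06). PMEPA1, SPHK1, GADD45B, SNAI1 and ID2 were among the genes that were not called. PMEPA1 stood at -0.99 with an edgeR adjusted p of 0.0128, on 1.39 to 3.89 CPM, and ID2 at 0.24 with an edgeR adjusted p of 5.75e-04. Without the second depleted library 6 target genes were called, all lower, and without the first control library 7, all lower. Many of these genes also respond to other signals, and a response to TGF-β in these cells was not tested.

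During transdifferentiation the same list had 10 genes higher and 2 lower in the control than at 0 h, against 25.4% and 22.9% of all tested genes. BHLHE40 rose from 0.928 and 1.35 CPM (log2 fold change 7.33, edgeR adjusted p = 1.35e-48), ID2 from 3.61 and 2.70 CPM (5.63, edgeR adjusted p = 1.53e-46), and ID1 was at least 200-fold higher. LDLRAD4 fell from 147 and 146 CPM (-3.13, edgeR adjusted p = 2.05e-38) and PMEPA1 from 22.1 and 23.1 CPM (-2.94, edgeR adjusted p = 1.38e-20). Of the 6 genes that fell on depletion, ID3 alone was not called higher in this first comparison, standing at 93.2 and 83.8 CPM at 0 h and 73.6 and 67.2 CPM in the control.

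**Figure D5:**
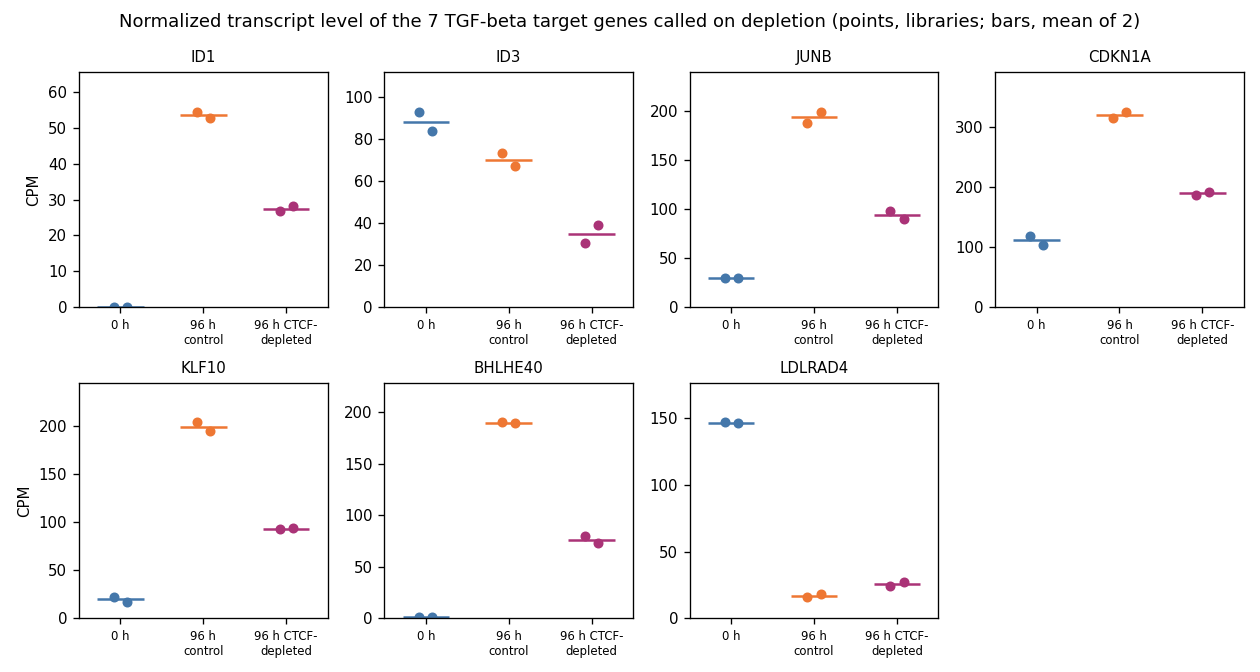
Each panel plots the level of 1 of the 7 TGF-β target genes called on depletion in CPM (y axis, linear, from 0) for the 2 libraries of each group (points) with their mean (bar). BHLHE40 goes from 0.928 and 1.35 CPM at 0 h to 190 and 190 CPM in the control and to 79.4 and 72.9 CPM after depletion, and LDLRAD4 runs the other way.

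A few markers of cell type were also called between control and depleted cells. Across all tested genes 5.41% were called higher and 7.03% lower on depletion. The median log2 fold change was 0.134 for the 10 macrophage markers and -0.134 for the 10 B cell markers. Among the macrophage markers 1 of 10 was called higher on depletion, ITGAM (log2 fold change 1.15), and 1 lower, the oxidase subunit CYBB (-0.93). Among the B cell markers CD22 (1.47) and VPREB3 (1.34) were called higher and VPREB1 (-0.89) lower. The 6 fibroblast markers summed to between 2.78 and 11.6 CPM in the 6 libraries, with DCN, LUM and COL3A1 at 0 counts. The part of cell state in the SMAD7 and target gene values was not tested.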

How the data were processed

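RNA-seq counts of 3 groups of 2 libraries were used. Per the labels and the methods of the study, stranded total RNA libraries depleted of ribosomal RNA were aligned to hg38 with STAR 2.6.1d, and the deposited values are raw counts per gene symbol made by the authors with featureCounts 2.0.6. The methods speak of protein-coding exons, while the table also has rows for non-coding genes (LINC and SNORD symbols). Annotation release and strand setting are not given in the sources used here. Genes passing edgeR's filterByExpr (14758 of 30017) were scaled by TMM and fitted over all 6 libraries with edgeR 4.0.16 (R 4.3.3) in a quasi-likelihood model with group as the only term. The fit shared its estimate of spread across genes, with 51.69 prior degrees of freedom. Calls needed a Benjamini-Hochberg adjusted p below 0.01 over all tested genes and an absolute log2 fold change above 0.6. CPM are counts scaled to a common library size with the TMM factors. Folds against groups with no more than 3 counts per library were computed against that floor, and floors and intervals cover counting error or library spread only, since reads without molecular identifiers are not independent molecules.

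Gene models were GENCODE v44 (hg38), and promoter sequences RefSeq GRCh38.p14, which matched 9 of the 10 genes. The named genes were all 10 members, up to 3 called genes with the largest change per list and comparison, and the 3 genes nearest to a member called on depletion. The remaining called target genes, the further genes near SMAD7 and the marker genes were named after their values were seen. The values of 1 target gene counted in its list are not reported here. Members and lists were chosen with earlier results of these data known. The scripts were tested on simulated counts. Replicates of a group differed by more than sampling noise (chi-square per degree of freedom 1.71 to 2.69). Alternatives were DESeq2 1.42.0, RLE scaling, other filters and thresholds, a replicate block, fewer libraries and other gene lengths.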

Additional observations from a re-analysis of the deposited data

How the results depend on the processing

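Of 108 recomputed counts of calls, 101 stayed within 1.5 times the reported count, and of 270 recomputed fold changes of the 9 genes, 264 kept direction and side of the threshold. With an adjusted p below 0.05 and no fold threshold, depleted against control gave 6 of the 9 genes (2 higher, 4 lower), 11 target genes and 5705 genes in all, and control against 0 h gave 11112 genes. With an absolute log2 fold change above 1 the depletion comparison gave 0 of the 9 genes, 4 target genes and 845 genes in all, against 1, 7 and 1836 as reported. DESeq2 called 1281 genes there. TGFBR2 in depleted cells against 0 h ranged from -0.0968 to 0.0085 when 1 library was left out, turning positive without the second depleted library (adjusted p = 0.916). SMAD2 in that comparison passed the threshold under 5 alternatives. Leaving out 1 library at a time gave 1 of the 9 genes each time for depletion, 6 for the control against 0 h, and 6 to 7 for depleted against 0 h. The target genes then numbered 6 to 8 on depletion, 12 in the control and 11 to 13 in depleted cells against 0 h, and all called genes 1453 to 1632, 6690 to 6864 and 7436 to 7516. A group left with 1 library was assumed to vary like the others. Replicates of the same number showed little shared deviation across genes, with correlations of 0.0149, 0.010 and -0.0084 between groups. Whether they were grown or processed together is not given in the sources used here. With the replicate block the depletion comparison had 1 of the 9 genes, 7 target genes and 1818 genes in all. The target gene counts and the canonical lengths were alternatives chosen after seeing the data. Levels per kilobase moved with the gene length used in all 54 recomputed values. TGFBI at 0 or 1 count allows no statement on its regulation.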
